A study of Mus musculus with 20 samples.

Results

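The tumours of mice given the full combination of olaparib, immune checkpoint blockade and anti-VEGFA (4 libraries) were compared with those of mice given checkpoint blockade alone (ICB, 3 libraries), across all expressed genes. These 7 libraries were taken by their labels from the 20 of the study. ICB was 100 µg of anti-CTLA-4 with 200 µg of anti-PD-L1, and the full combination added olaparib by mouth at 40 mg/kg per day and 20 µg of anti-VEGFA. The antibodies were given intraperitoneally 2 times a week. In both groups the tumours were ID8 Trp53-/-Brca1-/- cells that express luciferase, grown after intraperitoneal injection in female C57/BL6 mice, and the sample titles are read here as 1 mouse per library. ID8 is 1 mouse line of ovarian surface epithelium, so the comparison concerns 1 tumour line, and the labels do not give the age of the mice. The groups differ by 2 agents at once. No group among the 20 libraries was given ICB with anti-VEGFA but without olaparib. The 3 tumours given olaparib with ICB are shown beside the comparison as levels only.

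Olaparib blocks PARP enzymes, which help to repair broken DNA strands, and cells without Brca1 cannot use homologous recombination to make up for their loss. VEGFA is the growth factor that drives the sprouting of blood vessels and that tumours in the peritoneal cavity make in large amounts. CTLA-4 and PD-1 are brakes on T cells, and PD-L1 is the ligand of PD-1 on tumour and myeloid cells. Checkpoint antibodies release these brakes, so lymphocyte genes are a usual readout of such treatments in tumour tissue. The RNA came from whole pieces of frozen tissue, and in bulk samples fewer cells of a type and less RNA per cell cannot be told apart.

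The tissue carried the transcripts of its label. All 12 genes of an epithelial and mesothelial list, which holds the keratins Krt7, Krt8, Krt18 and Krt19 and the ovarian and mesothelial genes Wt1, Msln and Muc16, had counts in all 7 libraries, and their summed level was 2372 to 2605 CPM (normalised counts scaled to library size) in ICB and 2123 to 2475 CPM in the full combination. RNA of other tissue differed between libraries. Genes of the pancreatic acinus, the enzyme-secreting part of the pancreas, summed to 5024 CPM in full-combination replicate 2 and to 208 CPM in ICB replicate 3. All 9 fat cell genes tested had a log2 fold change above 0, and their sum in the full combination was 37.9 to 101 CPM against 19 to 28 CPM in ICB. The list score, the mean log2 CPM of its genes, was 0.673 to 1.97 in the full combination and -1.08 to -0.107 in ICB, with no overlap. Among its defining markers, Plin1 was at 0 in ICB replicate 1 and Cidec in ICB replicate 2. Red blood cell genes summed to 6.54 to 11 CPM in ICB and 10.4 to 91.6 CPM in the full combination, with the highest sum in full-combination replicate 2. Of 3 noncoding or mitochondria-linked transcripts that vary with library quality (Rn7sk, Mir6236 and Lars2), the score was 2.74 to 3.08 in ICB and 2.96 to 4.63 in the full combination.

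**Figure D1:**
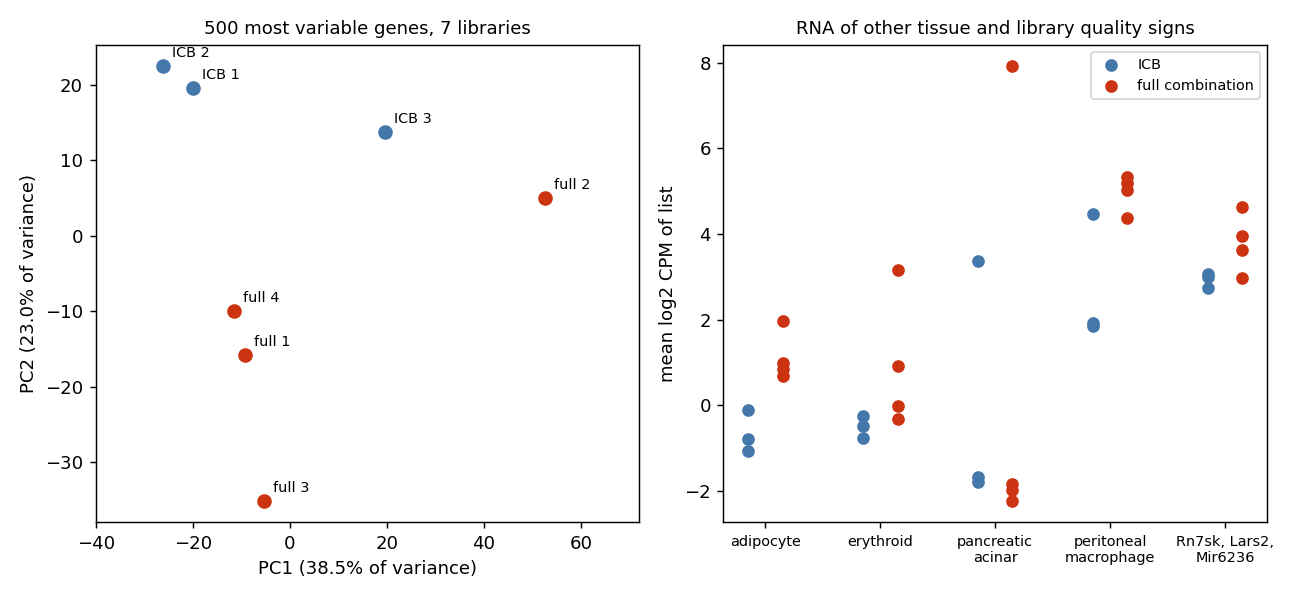
Left, the 7 libraries on the first 2 principal components of the 500 genes that vary most (log2 CPM). Right, the mean log2 CPM of 5 marker lists, 1 point per library. Full-combination replicate 2 and ICB replicate 3 stand to the right on the first component and hold the acinar RNA, ICB replicate 3 lies with the full combination in peritoneal macrophage genes, and the adipocyte score does not overlap between the groups.

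Library totals ran from 27.4 to 32.3 M counts in the full combination and from 30.2 to 32.5 M in ICB. The spread between tumours was wider in the full combination, with a median coefficient of variation of 9.68% per gene against 7.70% in ICB.

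Of 18144 genes tested, 1108 (6.11%) differed between the groups at an adjusted p under 0.05 by the quasi-likelihood test of edgeR. In the full combination 653 (3.6%) were higher and 455 (2.51%) were lower, and the smallest adjusted p was 0.000354. Libraries of the 2 groups did not overlap for 3100 of all genes tested (17.1%), and for 1034 of the called genes. Large changes lay mostly on one side, with 194 genes at least 2-fold higher and 34 at least 2-fold lower. Without the adjustment, 2063 genes (11.4%) were higher and 1953 (10.8%) lower at a p under 0.05. The Wald test of DESeq2 called 1783 genes (9.83%), limma voom with a weight per group called 743 (4.1%), and limma called 383 of the 7528 genes (5.09%) it could test in the deposited log2 RPKM values.

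**Figure D2:**
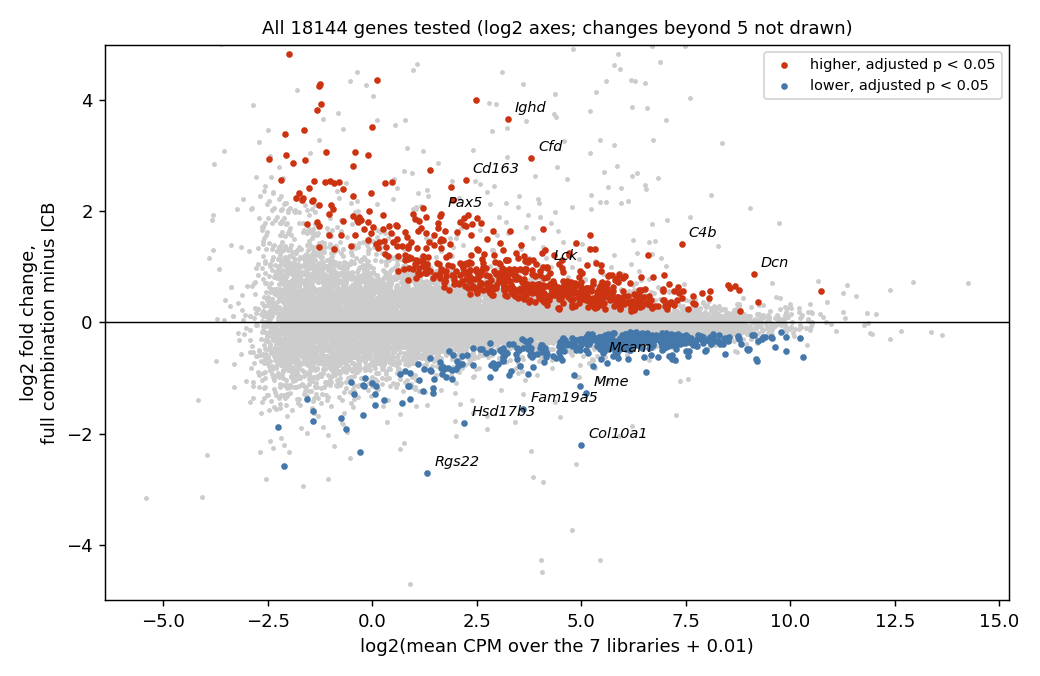
Log2 fold change (full combination minus ICB) against the log2 of the mean CPM over the 7 libraries for the 18144 genes tested. Red and blue mark the 653 higher and 455 lower genes, and 15 genes, 1 of them called, lie beyond the axis limit of 5.

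The number of calls moved widely with single libraries and with the RNA of other tissue. It was 355 without ICB replicate 1, 143 without ICB replicate 2, 634 without full-combination replicate 2 and 559 without full-combination replicate 3. It stayed between 914 and 1258 without the other 3 libraries in turn. With the adipocyte score as a covariate, added after seeing the data, 2 genes were called, Xylt1 and Mme, both lower. In that fit all 1108 genes kept their sign, the median absolute log2 fold change of these genes was 0.526 against 0.580, and the standard errors were 1.4 times as large in the median. The score of the noncoding transcripts as a covariate left 275 calls, and the red blood cell score 684. The adipocyte score split the groups without overlap, so treatment and RNA of fat tissue cannot be told apart for the calls that follow.

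**Figure D3:**
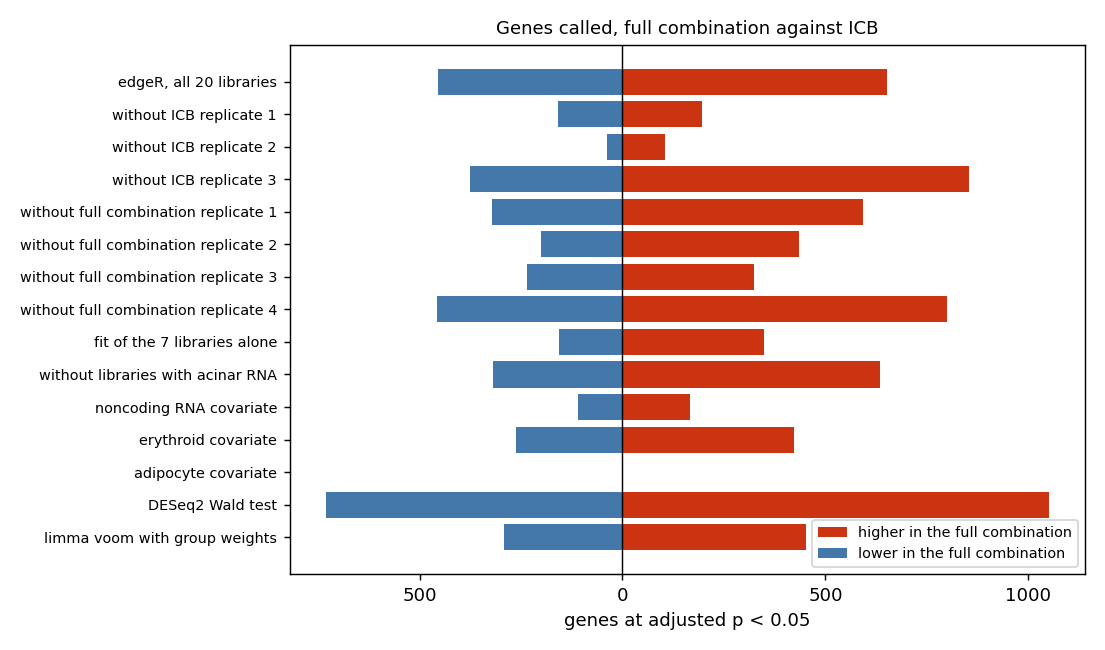
Number of genes called higher (red, right) and lower (blue, left) in the full combination at an adjusted p under 0.05 in each fit. The bars of the adipocyte covariate fit (0 higher and 2 lower) are too short to see, and the fit without ICB replicate 2 has the shortest bars of those that leave out 1 library.

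Part of the B cell genes rose in the full combination. Of 12 B cell genes 6 rose and none fell, against 3.6% of all genes, and the median log2 fold change was 1.05 against -0.01 over all genes. Pax5, the transcription factor that holds B cells to their lineage (chr4:44524757-44710487 in GRCm38), measured 1.07, 0.93 and 1.51 CPM in the ICB tumours and 2.86, 4.92, 7.44 and 2.86 CPM in the full combination (log2 fold change 1.95, SE 0.34, adjusted p = 0.00468). The lowest of the full-combination tumours was well above the highest ICB tumour. Cxcr5, the receptor that leads B cells into follicles, measured 0.849, 1.2 and 1.29 CPM in the ICB tumours and 2.86, 3.82, 5.08 and 1.9 CPM in the full combination (log2 fold change 1.61, SE 0.30, adjusted p = 0.00618). For Cxcr5, full-combination replicate 3 was highest and replicate 4 lowest, and the groups did not overlap. Ms4a1, which encodes CD20, had the same order of tumours, with 1.41, 1.89 and 3.26 CPM in the ICB tumours and 6.04, 6.81, 12.8 and 4.31 CPM in the full combination (log2 fold change 1.77, SE 0.37, adjusted p = 0.0126). In the tumours given olaparib with ICB, Ms4a1 was at 7.88, 5.5 and 10.6 CPM and Pax5 at 3.72, 3.15 and 5.32 CPM, above all 3 ICB tumours for both genes. Ltb, the lymphotoxin chain that lymphocytes use to organise lymphoid tissue, rose from 5.6, 6.68 and 6.95 to 11.6, 11.9, 13.2 and 9.93 CPM (log2 fold change 0.87, SE 0.17, adjusted p = 0.00652), and was the only called gene among 8 tested of 10 in a list of adhesion molecules and lymphoid chemokines.

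Pax5, Cxcr5 and Ltb were called without any single library. Ms4a1 lost its call without ICB replicate 1 or 2 (adjusted p = 0.0681 to 0.0839). The count of B cell genes fell to 2 of 12 without ICB replicate 1 and to 2 without ICB replicate 2. With the adipocyte covariate the log2 fold change of Pax5 was 1.93 (adjusted p = 0.159) and none of the 12 genes was called, and with the noncoding covariate 2 were.

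Few antibody genes passed the test. Of 11 constant region genes 1 rose, beside 3.6% of all genes tested. It was Ighd, the constant region of IgD, which naive B cells carry on their surface. It measured 1.1, 1.43 and 1.17 CPM in the ICB tumours and 2.6, 42.9, 10.4 and 6.45 CPM in the full combination (log2 fold change 3.66, SE 0.76, adjusted p = 0.0143), with full-combination replicate 2 far above the other 3. The call was lost without ICB replicate 1 or ICB replicate 2 (adjusted p = 0.0692 and 0.0812), and without full-combination replicate 2 the log2 fold change was 2.41 (adjusted p = 0.00954). Ighm, the constant region of IgM, was at 5405, 2921 and 8679 CPM in the ICB tumours and 12186, 13031, 6112 and 6278 CPM in the full combination (adjusted p = 0.323), and Igkc, the kappa light chain, at 14434, 15688 and 12691 CPM in the ICB tumours and 20275, 11885, 41908 and 19542 CPM in the full combination (adjusted p = 0.259). The groups overlapped for both. Of 10 plasma cell genes none was called by edgeR, DESeq2 called 0 and voom 0. At an unadjusted p under 0.05, 6 of them were higher, beside 11.4% of all genes. Derl3, a gene of the secretory pathway, had the smallest p of the plasma cell list, with 19, 19.5 and 15.4 CPM in the ICB tumours and 30.1, 19.2, 50.3 and 26.6 CPM in the full combination (adjusted p = 0.176).

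Most T cell genes rose. Of 15 T cell genes, which cover the receptor, its signalling and other surface molecules, 10 rose, beside 3.6% of all genes tested. None fell, and the median log2 fold change was 0.84. Lck, the kinase that starts signalling from the T cell receptor, measured 10.1, 13.1 and 11.5 CPM in the ICB tumours and 22.6, 22.3, 27.1 and 19.5 CPM in the full combination (log2 fold change 0.99, SE 0.17, adjusted p = 0.00468). Cd2, an adhesion molecule of T and natural killer cells, measured 7.14, 8.6 and 8.49 CPM in the ICB tumours and 16, 15.6, 23.9 and 14.7 CPM in the full combination (log2 fold change 1.12, SE 0.22, adjusted p = 0.00748). The scaffold protein gene Lat was at 6.73, 7.21 and 6.8 CPM in the ICB tumours and 12.5, 13.3, 16.3 and 9.87 CPM in the full combination (log2 fold change 0.91, SE 0.18, adjusted p = 0.00749), and Cd247, which encodes the zeta chain of the receptor, rose by 0.96 log2 units (SE 0.20, adjusted p = 0.00883). All 3 ICB tumours lay below all 4 full-combination tumours for these 4 genes. In the tumours given olaparib with ICB, Lck was at 20.01, 12.9 and 23.5 CPM and Cd2 at 12.9, 13 and 22.8 CPM, with the lowest of them inside the ICB range for Lck.

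Some genes of killing lymphocytes rose as well. Of 12 cytotoxic genes 5 rose (median 0.85), and of 8 natural killer genes 3 rose (median 0.98), beside 3.6% of all genes tested. Eomes, a transcription factor of effector and memory CD8 T cells and natural killer cells, measured 1.13, 0.93 and 1.11 CPM in the ICB tumours and 2.63, 2.32, 2.78 and 1.66 CPM in the full combination (log2 fold change 1.15, SE 0.26, adjusted p = 0.0134). Tbx21, which encodes the effector factor T-bet, rose from 0.692, 1.49 and 1.14 to 3.34, 2.92, 3.3 and 1.66 CPM (log2 fold change 1.34, SE 0.35, adjusted p = 0.0273), with full-combination replicate 4 just above the highest ICB tumour. Cd8b1, the beta chain of CD8, rose by 0.85 log2 units (SE 0.23, adjusted p = 0.0333), and Ccl5, a chemokine of activated T cells, by 0.95 log2 units (SE 0.26, adjusted p = 0.039). Ncr1, an activating receptor of natural killer cells, measured 0.283, 0.232 and 0.462 CPM in the ICB tumours and 1.2, 0.606, 2.1 and 0.828 CPM in the full combination (log2 fold change 1.85, SE 0.44, adjusted p = 0.0175). The natural killer receptor genes Klrc1 and Klra8 were called too, at 0.779, 1.14, 1.04 and 0.517 CPM and 0.746, 0.178, 1.07 and 0.414 CPM in the full combination and at 0.126, 0.266 and 0.338 CPM and 0.0314, 0.0664 and 0.308 CPM in ICB, so these calls rest on few counts, and the groups overlapped for Klra8.

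Part of the regulatory and inhibitory genes passed, beside 3.6% of all genes tested that were called higher. At an unadjusted p under 0.05, 4 of 7 regulatory and 7 of 11 checkpoint genes were higher, beside 11.4% of all genes. Foxp3, the master regulator of regulatory T cells, measured 4.84, 5.75 and 6.34 CPM in the ICB tumours and 7.82, 10.5, 15.7 and 10.04 CPM in the full combination (log2 fold change 0.97, SE 0.21, adjusted p = 0.0107). Tnfrsf4, the costimulatory receptor OX40, rose by 0.75 log2 units (SE 0.17, adjusted p = 0.0141), and these 2 were the called genes of 7 in the list. Ctla4, the target of one of the antibodies, was at 4.46, 5.02 and 5.63 CPM in the ICB tumours and 10.3, 7.88, 11.7 and 9.24 CPM in the full combination and did not pass (log2 fold change 0.96, adjusted p = 0.0633) although the groups did not overlap. Of 11 checkpoint genes 2 rose. Btla, an inhibitory receptor of B and T cells, was at 5.85, 8.44 and 7.2 CPM in the ICB tumours and 13, 11.1, 16.9 and 10.6 CPM in the full combination (log2 fold change 0.85, SE 0.19, adjusted p = 0.0141). Vsir, which encodes the inhibitory ligand VISTA, rose by 0.57 log2 units (SE 0.14, adjusted p = 0.0239). Pdcd1, which encodes PD-1, had a log2 fold change of 0.71 with adjusted p = 0.0739. Cd274, which encodes PD-L1, was at 42.8, 48.3 and 58.2 CPM in the ICB tumours and 62.2, 39.7, 63.7 and 47.3 CPM in the full combination, a log2 fold change of 0.10 with SE 0.19 (adjusted p = 0.813).

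**Figure D4:**
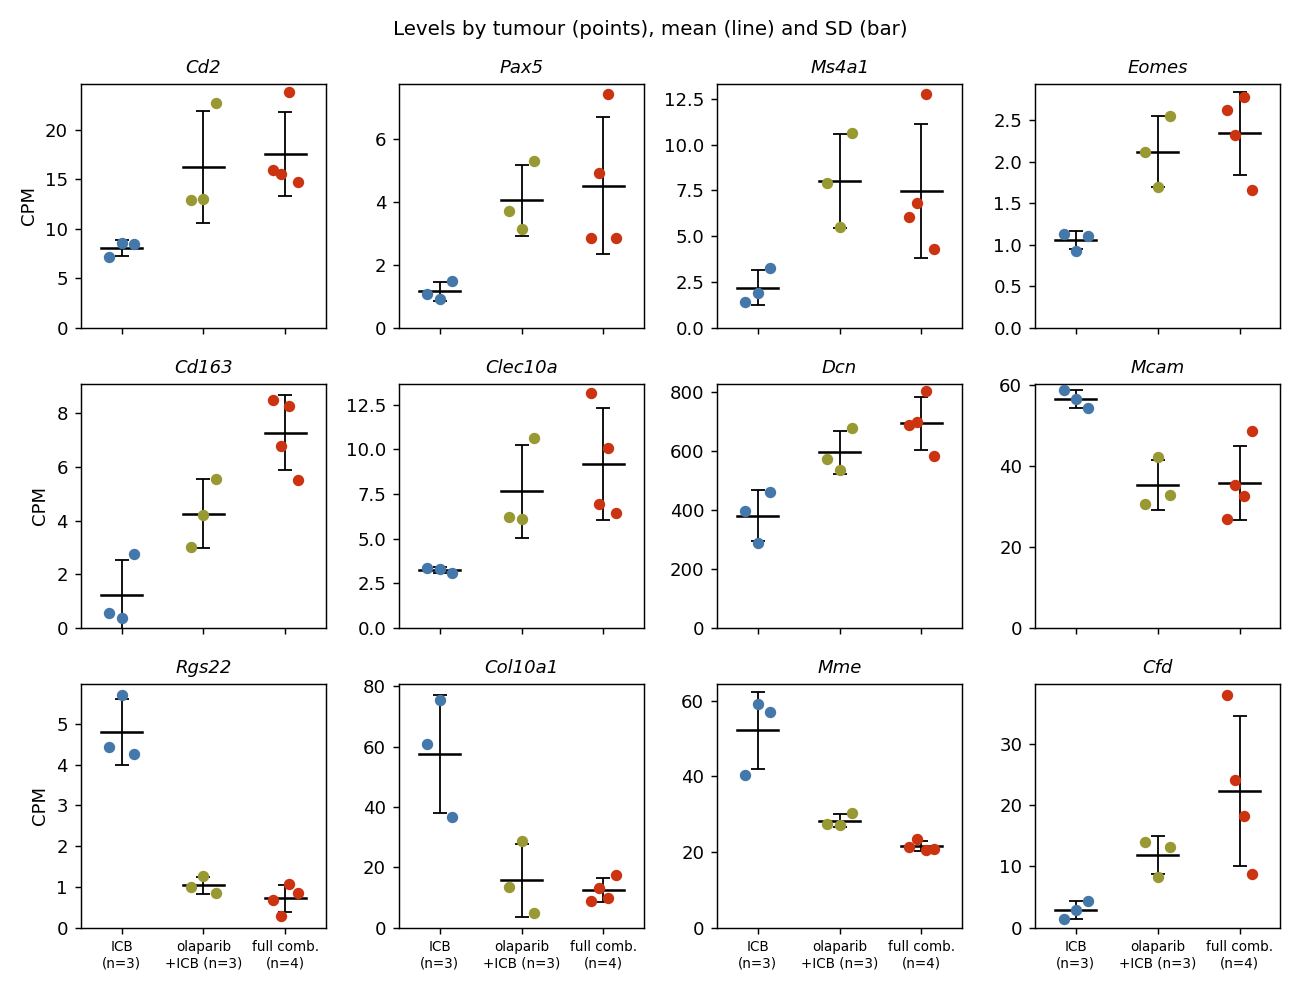
CPM of 12 genes in each ICB, olaparib+ICB and full-combination tumour (points), with the group mean (line) and SD (bar, drawn from 0 upward where it would fall below 0). The 4 full-combination tumours lie above all 3 ICB tumours for Cd2, Pax5, Ms4a1, Eomes, Cd163, Clec10a, Dcn and Cfd and below them for Mcam, Rgs22, Col10a1 and Mme.

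Lck, Cd2 and Lat were called without any single library. Cd247 and Eomes lost their calls without ICB replicate 2 (adjusted p = 0.0514 to 0.0839). Tbx21 and Klrc1 lost their calls without ICB replicate 1 or 2 or full-combination replicate 1, 2 or 3 (adjusted p = 0.0523 to 0.159). Cd8b1 and Vsir lost their calls without ICB replicate 1 or 2 or full-combination replicate 2 or 3 (adjusted p = 0.0571 to 0.146). Ccl5 lost its call without ICB replicate 1, 2 or 3 or full-combination replicate 1, 2 or 3 (adjusted p = 0.0525 to 0.14). Ncr1 lost its call without ICB replicate 1 or 2 or full-combination replicate 3 (adjusted p = 0.0662 to 0.107). Klra8 lost its call without ICB replicate 1 or 2 or full-combination replicate 1 or 3 (adjusted p = 0.0785 to 0.199). Foxp3 and Tnfrsf4 lost their calls without ICB replicate 1 or 2 (adjusted p = 0.0582 to 0.0747). Btla lost its call without ICB replicate 1 (adjusted p = 0.078). The T cell count was 4 of 15 without ICB replicate 1, 4 without ICB replicate 2 and 6 without full-combination replicate 3. Of the cytotoxic genes 1, of the natural killer genes 0 and of the regulatory genes 0 remained called without ICB replicate 1, and 0 of all 3 lists without ICB replicate 2. Without ICB replicate 3 the log2 fold change of Klra8 was 3.55. With the adipocyte covariate none of the 15 was called, the log2 fold change of Lck was 0.93 (adjusted p = 0.186), and with the noncoding covariate 2 were called.

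No interferon gene and few antigen presentation genes passed the test. None of 23 type I interferon genes and none of 13 tested of 14 interferon gamma genes was called by edgeR or by DESeq2, and none had an unadjusted p under 0.05. Their median log2 fold changes were 0.05 and -0.10, and both changed sign with single libraries, the first to -0.02 without ICB replicate 1 or full-combination replicate 1, and the second to 0.02 without ICB replicate 3. In the fit with the adipocyte covariate 3 of 23 type I genes had a positive log2 fold change, against 16 without it, and none was called. Irf7, a factor that amplifies the interferon response, was at 68.9, 76 and 87.3 CPM in the ICB tumours and 89.1, 105, 82 and 85 CPM in the full combination (adjusted p = 0.364). Gbp4, a guanylate-binding protein induced by interferon gamma, was at 202, 234 and 273 CPM in the ICB tumours and 267, 166, 217 and 190.0 CPM in the full combination (adjusted p = 0.576). The groups overlapped for both. Of 9 tested of 10 genes of the STING pathway, which senses DNA in the cytoplasm, 1 rose, beside 3.6% of all genes tested. It was the kinase gene Ikbke, from 38.9, 37.9 and 36.3 to 49.9, 45, 58.2 and 48.4 CPM (log2 fold change 0.42, SE 0.09, adjusted p = 0.0115). Tmem173, which encodes STING itself, was at 48.2, 51 and 57.8 CPM in the ICB tumours and 69, 63.8, 67.1 and 53.8 CPM in the full combination (adjusted p = 0.0965). It passed without ICB replicate 3 (adjusted p = 0.0469) or without full-combination replicate 4 (adjusted p = 0.0262), which were the highest ICB and the lowest full-combination tumour. Of 11 MHC class I genes none was called by edgeR, and DESeq2 called 2. At an unadjusted p under 0.05, 2 were higher, beside 11.4% of all genes. H2-K1 and H2-D1, the classical class I heavy chains, had log2 fold changes of 0.33 and 0.32 (adjusted p = 0.103 and 0.0847, and 0.0488 for H2-D1 without full-combination replicate 4), and the reads of these 2 similar genes may be split between them. Of 9 class II genes 1 rose, beside the same 3.6% of all genes. It was H2-Oa, a modulator of peptide loading in B cells, by 0.61 log2 units (SE 0.17, adjusted p = 0.0412). Ikbke lost its call without ICB replicate 2 (adjusted p = 0.0547). H2-Oa lost its call without ICB replicate 1, 2 or 3 or full-combination replicate 1, 2 or 3 (adjusted p = 0.0603 to 0.152).

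Macrophage genes rose in part. Of 11 macrophage genes 4 rose (median 0.45), beside 3.6% of all genes tested. Cd163, a scavenger receptor of tissue macrophages, measured 0.566, 0.365 and 2.74 CPM in the ICB tumours and 8.5, 6.78, 8.28 and 5.52 CPM in the full combination (log2 fold change 2.56, SE 0.51, adjusted p = 0.0102), with ICB replicate 3 above the other 2 ICB tumours. C1qa, a subunit of the complement starter C1q that macrophages make, was at 496, 498 and 556 CPM in the ICB tumours and 625, 669, 743 and 641 CPM in the full combination (log2 fold change 0.37, SE 0.10, adjusted p = 0.0278). Csf1r, the receptor of the macrophage growth factor, rose by 0.45 log2 units (SE 0.13, adjusted p = 0.0477), and the lysosomal Cd68 by 0.49 log2 units (SE 0.14, adjusted p = 0.0442). Clec10a, a lectin of alternatively activated macrophages and dendritic cells, was at 3.36, 3.32 and 3.05 CPM in the ICB tumours and 13.2, 6.96, 10.1 and 6.42 CPM in the full combination (log2 fold change 1.5, SE 0.30, adjusted p = 0.00829), and was the only called gene of 8 in its list. Retnla and Chil3, secreted proteins of the same state, were at 1.98, 1.86 and 17.6 CPM in the ICB tumours and 57.7, 53.9, 99.7 and 26.8 CPM in the full combination for the first and 5.34, 3.89 and 47.1 CPM in the ICB tumours and 97.1, 123, 160.1 and 86.2 CPM in the full combination for the second, and neither passed (adjusted p = 0.0613 and 0.0796). In both, ICB replicate 3 lay between the other ICB tumours and the full combination, and both passed without it (adjusted p = 0.0115 and 0.00584). That tumour was singled out by these values, so passing without it is no further support.

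Genes of peritoneal cavity macrophages set ICB replicate 3 apart from its group. Prg4, a lubricating glycoprotein of these cells, was at 3.68, 5.31 and 78.4 CPM in the ICB tumours and 76.5, 175, 242 and 217 CPM in the full combination. Timd4, a receptor for dying cells, was at 0.22, 0.266 and 5.51 CPM in the ICB tumours and 4.25, 11, 13.9 and 11.7 CPM in the full combination, and Alox15, a lipoxygenase of the same cells, at 3.84, 3.52 and 40.9 CPM in the ICB tumours and 38.9, 77.5, 83.2 and 89.97 CPM in the full combination. ICB replicate 3 lay at or near the lowest full-combination tumour for all 3 genes, far above the other ICB tumours. None of the 8 genes was called by edgeR (median log2 fold change 1.89), and DESeq2 called 3. At an unadjusted p under 0.05, 6 were higher and 1 lower, beside 11.4% and 10.8% of all genes. The lower one was Garnl3 (log2 fold change -0.22, adjusted p = 0.111). Without ICB replicate 3 the count was 6 of 8 and the median 3.78, with adjusted p = 0.00247 for Prg4, 0.000905 for Timd4 and 0.00446 for Alox15. The macrophage count rose to 9 of 11, and over all genes 1231 of 18544 were called in that fit. ICB replicate 3 was singled out by these same values. A wider gap without it was therefore fixed in advance and is no further support. Named genes of large change with a similar place of ICB replicate 3 were Ms4a8a, at 0.597, 0.0996 and 2.43 CPM in the ICB tumours and 4.8, 5.85, 6.99 and 5.11 CPM in the full combination (log2 fold change 2.43, SE 0.59, adjusted p = 0.0259), and Adgre4, a macrophage adhesion receptor, at 0.314, 0.498 and 1.63 CPM in the ICB tumours and 2.17, 3.96, 3.75 and 3.86 CPM in the full combination (log2 fold change 2.06, SE 0.46, adjusted p = 0.0141).

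Other myeloid lists held 1 or 2 calls, all higher, beside 3.6% of all genes tested that were called higher. Csf3r, the receptor of the neutrophil growth factor, rose from 19, 18.7 and 20.1 to 27, 31.1, 34.8 and 23.2 CPM (log2 fold change 0.59, SE 0.12, adjusted p = 0.00742), while no other gene of 9 tested of 10 in the neutrophil list was called and the list median was -0.99, with 3 positive log2 fold changes. That direction rested on ICB replicate 3. Without it the neutrophil median was 1.01, all 9 log2 fold changes were positive and 2 genes rose, and by voom the median was 0.33. Hdc, which encodes the enzyme that makes histamine, rose from 20.6, 21.7 and 17.8 to 32.4, 31.5, 28.3 and 28.7 CPM (log2 fold change 0.59, SE 0.11, adjusted p = 0.00557). Cma1, a mast cell protease, rose by 1.12 log2 units (SE 0.31, adjusted p = 0.043) with overlapping groups. These were 2 of 10 tested in a mast cell and eosinophil list of 11. Ccr7, which brings dendritic cells and naive T cells to lymph nodes, rose by 0.80 log2 units (SE 0.21, adjusted p = 0.0321), as the only called gene of 10.

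Part of the complement genes rose. Of 10 genes 4 rose (median 0.47), beside 3.6% of all genes tested. C4b, the central component of the classical pathway, measured 60.8, 68.6 and 131 CPM in the ICB tumours and 177, 250.1, 259 and 233 CPM in the full combination (log2 fold change 1.4, SE 0.31, adjusted p = 0.0172). Serping1, the inhibitor of C1, rose by 0.57 log2 units (SE 0.11, adjusted p = 0.00823), and the protease gene C1ra by 0.29 log2 units (SE 0.07, adjusted p = 0.023). The groups did not overlap for these 3 genes, and ICB replicate 3 was the highest ICB tumour for C4b and Serping1. Of 6 tested of 8 acute phase genes 1 rose, beside the same 3.6% of all genes. It was Lrg1, from 0.786, 0.399 and 2.37 to 4.93, 4.49, 4.53 and 4.002 CPM (log2 fold change 1.91, SE 0.50, adjusted p = 0.0345). Saa3, a serum amyloid made in inflamed tissue, was at 6.79, 8.77 and 37 CPM in the ICB tumours and 76.6, 99.8, 104 and 96.1 CPM in the full combination and did not pass (adjusted p = 0.0576). In a list of 15 inflammatory genes 2 rose, again beside 3.6% of all genes. Both encode inhibitors of NF-kappaB signalling, Tnfaip3 (0.31 log2 units, SE 0.08, adjusted p = 0.0186) and Nfkbia (0.29 log2 units, SE 0.07, adjusted p = 0.0248).

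Csf3r and Hdc were called without any single library. Cd163, Adgre4 and C4b lost their calls without ICB replicate 1 or 2 (adjusted p = 0.0514 to 0.104). C1qa and Csf1r lost their calls without ICB replicate 1 or 2 or full-combination replicate 2 or 3 (adjusted p = 0.0506 to 0.172). Cd68 lost its call without ICB replicate 1 or 2 or full-combination replicate 2, 3 or 4 (adjusted p = 0.0558 to 0.183). Clec10a and Serping1 lost their calls without ICB replicate 2 (adjusted p = 0.0514 to 0.0547). Ms4a8a and Tnfaip3 lost their calls without ICB replicate 1 or 2 or full-combination replicate 3 (adjusted p = 0.054 to 0.11). Cma1, Ccr7 and Lrg1 lost their calls without ICB replicate 1 or 2 or full-combination replicate 1, 2 or 3 (adjusted p = 0.0568 to 0.193). C1ra lost its call without ICB replicate 2 or 3 or full-combination replicate 3 (adjusted p = 0.0525 to 0.0957). Nfkbia lost its call without ICB replicate 2 or 3 or full-combination replicate 1 or 3 (adjusted p = 0.0508 to 0.0909). Without ICB replicate 1 or 2 no macrophage gene was called, and without ICB replicate 2 no complement gene. Without ICB replicate 3 the log2 fold change was 3.96 for Cd163, 4.01 for Ms4a8a, 3.09 for Adgre4 and 2.92 for Lrg1, and Saa3 passed (adjusted p = 0.0147). With the adipocyte covariate no gene of the myeloid, complement or inflammatory lists was called.

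Some stromal genes rose and some pericyte genes fell. Of 14 fibroblast and matrix genes 4 rose and none fell (median 0.33), beside 3.6% of all genes tested that rose. Dcn, the matrix proteoglycan decorin (chr10:97479609-97518143), measured 395, 287 and 459 CPM in the ICB tumours and 687, 698, 802 and 584 CPM in the full combination (log2 fold change 0.87, SE 0.15, adjusted p = 0.00538). Pdgfra, a growth factor receptor of fibroblasts, was at 39.7, 27.8 and 40.3 CPM in the ICB tumours and 59, 54.5, 61.5 and 61.6 CPM in the full combination (log2 fold change 0.72, SE 0.18, adjusted p = 0.0291). The surface marker Thy1, which T cells share, rose by 0.32 log2 units (SE 0.08, adjusted p = 0.019), and the collagen gene Col3a1 by 0.57 log2 units (SE 0.15, adjusted p = 0.0361). Groups overlapped for Col3a1 alone among these 4. Of 9 pericyte genes 2 fell (median -0.56), against 2.51% of all genes. Mcam, an adhesion molecule of pericytes and endothelium, measured 58.7, 56.5 and 54.2 CPM in the ICB tumours and 26.9, 35.2, 32.5 and 48.5 CPM in the full combination (log2 fold change -0.66, SE 0.17, adjusted p = 0.0356). Abcc9, a subunit of the potassium channel of pericytes, was at 16.2, 19.8 and 17 CPM in the ICB tumours and 8.44, 11.2, 14.4 and 12.1 CPM in the full combination (log2 fold change -0.62, SE 0.16, adjusted p = 0.033). Rgs5, a signalling regulator used as a pericyte marker, was at 212, 211 and 170.4 CPM in the ICB tumours and 87.6, 117, 133 and 152 CPM in the full combination and did not pass (adjusted p = 0.0869).

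Vessel and hypoxia lists held few calls. Of 12 endothelial genes none was called by edgeR and DESeq2 called 1. At an unadjusted p under 0.05, 3 were lower, beside 10.8% of all genes. Pecam1, the endothelial adhesion molecule CD31, was at 82.8, 78.5 and 79.6 CPM in the ICB tumours and 65.2, 71.9, 67.2 and 69.3 CPM in the full combination (adjusted p = 0.063). Of 10 tip cell and angiopoietin genes 1 rose and 1 fell, beside 3.6% and 2.51% of all genes tested. In that list 3 were higher and 5 lower at an unadjusted p under 0.05 (median -0.40), beside 11.4% and 10.8%. Pdgfb, the factor by which endothelial tip cells recruit pericytes, fell from 85.6, 89.4 and 96.1 to 72.2, 71.9, 65.3 and 76.6 CPM (log2 fold change -0.34, SE 0.09, adjusted p = 0.0324). Cxcr4, a chemokine receptor of tip cells that leukocytes share, rose by 0.64 log2 units (SE 0.17, adjusted p = 0.0307). Esm1, a tip cell product induced by VEGF, was at 37.1, 51.5 and 35.9 CPM in the ICB tumours and 10.3, 21.2, 19 and 33.9 CPM in the full combination and did not pass (adjusted p = 0.139). Vegfa, the target of the added antibody, was at 458, 532 and 491 CPM in the ICB tumours and 294, 326, 284 and 484 CPM in the full combination (log2 fold change -0.51, adjusted p = 0.118). Full-combination replicate 4 lay within the ICB range for Vegfa and the other 3 tumours lay below it, and the same tumour was the highest of its group for Esm1, Mcam and Rgs5. Without that tumour Vegfa fell by 0.69 on the log2 scale (adjusted p = 0.0171). The tumour was picked out by this same value, so a larger fall without it was fixed in advance and is no further support. The antibody acts on the protein, so the level of its RNA does not check it. With all libraries, none of the 10 VEGF ligand and receptor genes was called by edgeR. At an unadjusted p under 0.05, 1 was higher and 2 lower, beside 11.4% and 10.8% of all genes, and DESeq2 called 0. Of 13 hypoxia genes none was called by edgeR and DESeq2 called 2 lower (median -0.25). At an unadjusted p under 0.05, 3 were lower, beside 10.8% of all genes. Ndrg1, a stress gene raised by low oxygen, was at 537, 631 and 638 CPM in the ICB tumours and 508, 485, 434 and 524 CPM in the full combination (adjusted p = 0.0511), and Pdk1, a kinase that turns pyruvate away from mitochondria, at 118, 138 and 138 CPM in the ICB tumours and 107, 79.3, 85.7 and 119 CPM in the full combination (adjusted p = 0.0602). Without full-combination replicate 4, 3 hypoxia genes passed, Ndrg1 (adjusted p = 0.0485), Pdk1 (0.0197) and Ndufa4l2 (0.0148), as did the VEGF receptor gene Nrp2 (0.0289), all lower. Over all genes 1258 of 18127 were called in that fit, and the choice of the tumour by its Vegfa level limits these calls too.

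Dcn was called without any single library. Pdgfra lost its call without ICB replicate 1 or 2 or full-combination replicate 3 (adjusted p = 0.0621 to 0.143). Thy1 and Cxcr4 lost their calls without ICB replicate 1 or 2 or full-combination replicate 2 or 3 (adjusted p = 0.0506 to 0.14). Col3a1 lost its call without ICB replicate 1 or 2 or full-combination replicate 1 or 2 (adjusted p = 0.0593 to 0.162). Mcam lost its call without ICB replicate 1, 2 or 3 or full-combination replicate 1, 2 or 3 (adjusted p = 0.0582 to 0.136). Abcc9 lost its call without ICB replicate 1, 2 or 3 or full-combination replicate 1 or 2 (adjusted p = 0.0519 to 0.19). Pdgfb lost its call without ICB replicate 1, 2 or 3 or full-combination replicate 2 or 3 (adjusted p = 0.0693 to 0.132). The pericyte count was 0 without any 1 of ICB replicates 1 and 2 and full-combination replicates 1 and 2. Without ICB replicate 3 the fibroblast count was 8 of 14. With the adipocyte covariate the log2 fold change of Dcn was 0.70 (adjusted p = 0.215).

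The named genes with the largest fall belong to none of the lists. Mme, the cell surface peptidase neprilysin or CD10 (chr3:63241537-63386030), had the smallest p of all genes. It measured 40.3, 59.1 and 57 CPM in the ICB tumours and 21.3, 23.4, 20.5 and 20.8 CPM in the full combination (log2 fold change -1.28, SE 0.14, adjusted p = 0.000354), and the 4 full-combination tumours lay close together and below all ICB tumours. Tumours given olaparib with ICB were at 27.4, 27.2 and 30.2 CPM. With the adipocyte covariate its log2 fold change was -1.26 (adjusted p = 0.0484). Rgs22, a regulator of G protein signalling known from testis (chr15:36009479-36140400), measured 4.43, 5.71 and 4.25 CPM in the ICB tumours and 0.681, 0.285, 1.07 and 0.862 CPM in the full combination (log2 fold change -2.71, SE 0.37, adjusted p = 0.00108). The olaparib with ICB tumours were at 0.989, 1.27 and 0.86 CPM, below all ICB tumours. Col10a1, the collagen of growth plate cartilage (chr10:34389981-34397085), was at 60.8, 75.5 and 36.6 CPM in the ICB tumours and 8.96, 13.1, 9.97 and 17.7 CPM in the full combination (log2 fold change -2.21, SE 0.58, adjusted p = 0.0385). Hsd17b3, an enzyme that makes testosterone (chr13:64058266-64089230), measured 7.29, 10.9 and 5.02 CPM in the ICB tumours and 2.34, 1.28, 3.11 and 2.001 CPM in the full combination (log2 fold change -1.82, SE 0.35, adjusted p = 0.0078). Fam19a5, a secreted chemokine-like protein (chr15:87544299-87759364), measured 17.1, 27.1 and 14.2 CPM in the ICB tumours and 6.07, 6.13, 8.61 and 5.62 CPM in the full combination (log2 fold change -1.56, SE 0.30, adjusted p = 0.00854). For the last 3 ICB replicate 2 was the highest tumour. Also among the 10 with the largest fall were Jsrp1, Olfr873, Zfp981 and Scn4b, all under 8 CPM in every tumour, with log2 fold changes of -1.46 to -1.23. Mme and Rgs22 were called without any single library. Col10a1 lost its call without ICB replicate 1 or 2 or full-combination replicate 1, 2 or 3 (adjusted p = 0.0793 to 0.161). Hsd17b3, Fam19a5 and Jsrp1 lost their calls without ICB replicate 2 (adjusted p = 0.0623 to 0.0807). Olfr873 lost its call without ICB replicate 1 or full-combination replicate 3 (adjusted p = 0.0565 to 0.164). Zfp981 lost its call without ICB replicate 3 or full-combination replicate 1, 2 or 3 (adjusted p = 0.0513 to 0.252). Scn4b lost its call without ICB replicate 1 or 2 or full-combination replicate 3 or 4 (adjusted p = 0.0679 to 0.192). Without ICB replicate 3 the log2 fold change of Zfp981 was -0.59.

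Among the epithelial and mesothelial genes 2 of 12 rose, beside 3.6% of all genes tested. Cdh1, the epithelial adhesion molecule E-cadherin, measured 3.99, 4.82 and 4.65 CPM in the ICB tumours and 9.12, 6.56, 7.73 and 8.97 CPM in the full combination (log2 fold change 0.85, SE 0.17, adjusted p = 0.00823). Lrrn4, a surface protein of mesothelium, was at 16.4, 21.5 and 24.4 CPM in the ICB tumours and 41, 30.1, 49.1 and 38.2 CPM in the full combination (log2 fold change 0.93, SE 0.20, adjusted p = 0.0136). The tumours did not overlap for either. Wt1 was at 1056, 1061 and 965 CPM in the ICB tumours and 896, 849, 919 and 969 CPM in the full combination (adjusted p = 0.106), and Msln, the tumour antigen mesothelin, at 309.5, 294 and 280.3 CPM in the ICB tumours and 244, 242, 255 and 269.7 CPM in the full combination (adjusted p = 0.125). Also among the 10 largest rises were Gabrq, a subunit of the GABA receptor, from 0.157, 0.266 and 0.554 to 2.08, 1.96, 2.33 and 1.17 CPM (log2 fold change 2.51, SE 0.44, adjusted p = 0.00468), Vat1l, by 2.2 log2 units (SE 0.58, adjusted p = 0.0386), and Wnt2b, a Wnt ligand, by 1.95 log2 units (SE 0.42, adjusted p = 0.0123). Cdh1 and Gabrq were called without any single library. Lrrn4 and Wnt2b lost their calls without ICB replicate 1 or 2 (adjusted p = 0.0635 to 0.0839). Vat1l lost its call without ICB replicate 1 or 2 or full-combination replicate 1, 2 or 3 (adjusted p = 0.0511 to 0.178). Without ICB replicate 3 the log2 fold change was 3.16 for Gabrq, 3.47 for Vat1l and 2.94 for Wnt2b.

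**Figure D5:**
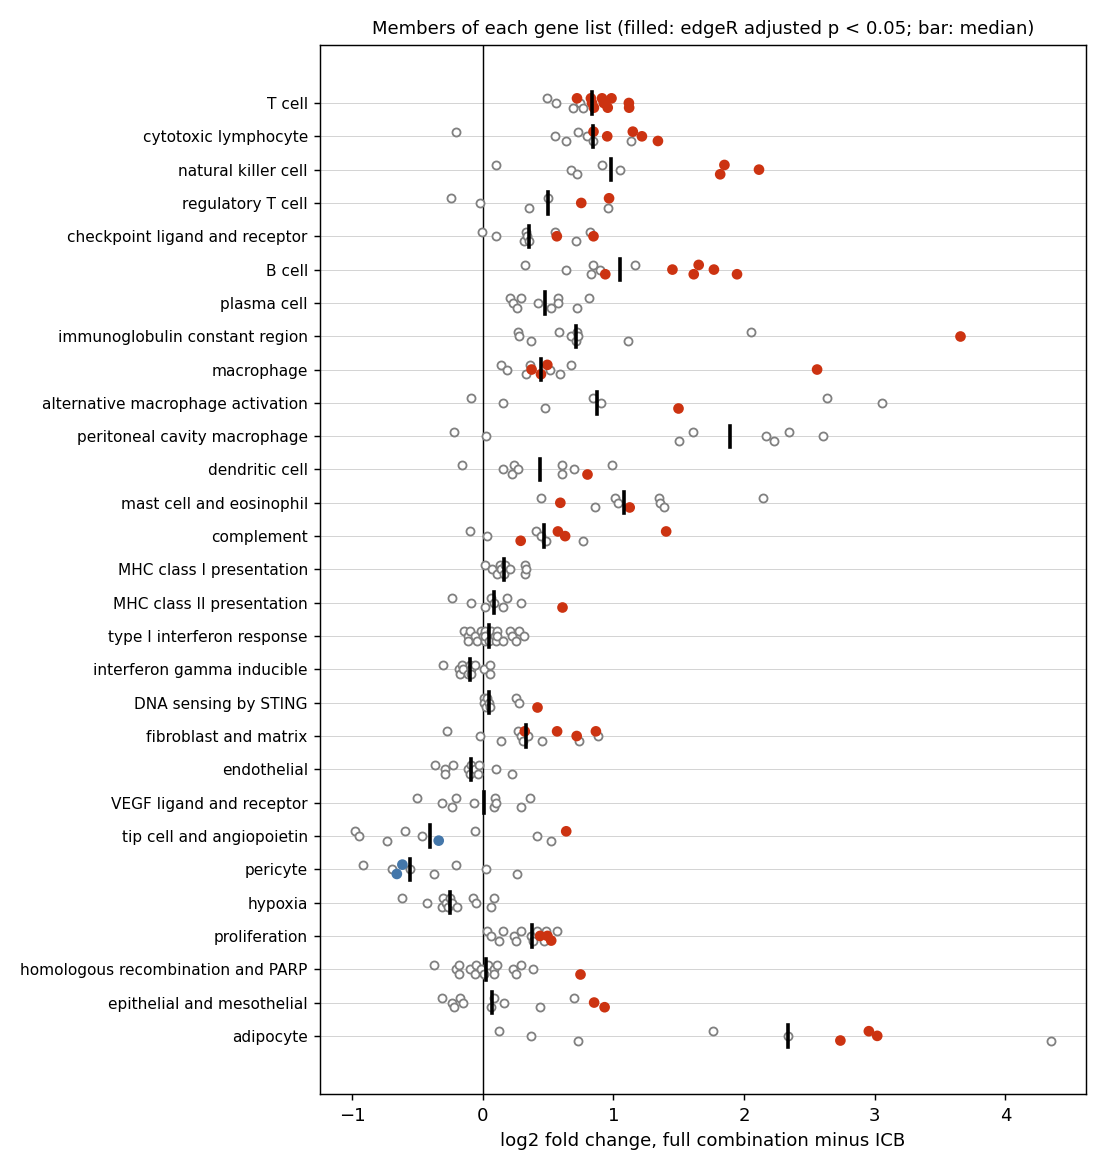
Log2 fold change (full combination minus ICB) of each tested member of 29 gene lists, 1 point per gene. Filled points passed an adjusted p of 0.05 (red higher, blue lower), open points did not, and bars are list medians. The medians of the lymphocyte lists lie to the right of 0, the medians of the interferon lists lie close to 0, and that of the pericyte list lies to the left.

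Part of the cell division genes passed the test. Of 16 genes 3 rose and none fell, beside 3.6% and 2.51% of all genes tested. At an unadjusted p under 0.05, 10 were higher, beside 11.4% of all genes, and the median was 0.38. None was called with the adipocyte covariate, none was past that unadjusted p and the median was 0.10. The mean list score was 5.38 in ICB and 5.72 in the full combination, beside 5.71 in olaparib with ICB and 5.70 in untreated tumours. ICB thus had the lowest mean of these groups, and the full combination lay near the untreated level (levels only, no test). Plk1, a kinase of mitosis, measured 17.2, 21.3 and 25.1 CPM in the ICB tumours and 30.3, 34.9, 25.5 and 31.2 CPM in the full combination (log2 fold change 0.52, SE 0.12, adjusted p = 0.0172). Rrm2, the ribonucleotide reductase subunit that supplies DNA building blocks, was at 24.3, 33.4 and 39.3 CPM in the ICB tumours and 48.5, 41.7, 41 and 44.1 CPM in the full combination (log2 fold change 0.44, SE 0.12, adjusted p = 0.0316). Ccnb1, which encodes cyclin B1, was at 12.1, 16 and 21.2 CPM in the ICB tumours and 26.2, 24.3, 19.1 and 23.1 CPM in the full combination (log2 fold change 0.49, SE 0.14, adjusted p = 0.0364). ICB replicate 1 was the lowest and replicate 3 the highest of its group for all 3, and only Ccnb1 overlapped. Plk1 lost its call without ICB replicate 1 or 2 (adjusted p = 0.0812 to 0.1). Rrm2 lost its call without ICB replicate 1 or 2 or full-combination replicate 1 (adjusted p = 0.0695 to 0.136). Ccnb1 lost its call without ICB replicate 1 or 2 or full-combination replicate 1 or 2 (adjusted p = 0.0706 to 0.164). The list count ran from 0 without ICB replicate 1 or replicate 2 to 10 of 16 without ICB replicate 3. The motif CCAAT, which is common before the start of cell cycle genes, is shown for the 3 genes in the 120 bases before the start (RefSeq, GRCm38.p6), 5′ to 3′ on the strand of the gene, with matches on that strand in capitals.
Plk1, chr7:122159315-122159434, plus strand: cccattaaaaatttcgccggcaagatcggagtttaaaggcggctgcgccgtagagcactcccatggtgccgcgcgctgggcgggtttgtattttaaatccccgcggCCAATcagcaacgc
Rrm2, chr12:24708134-24708253, plus strand: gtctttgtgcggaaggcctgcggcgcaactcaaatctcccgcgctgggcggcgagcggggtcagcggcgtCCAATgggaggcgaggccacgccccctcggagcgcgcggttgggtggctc
Ccnb1, chr13:100786487-100786606, minus strand: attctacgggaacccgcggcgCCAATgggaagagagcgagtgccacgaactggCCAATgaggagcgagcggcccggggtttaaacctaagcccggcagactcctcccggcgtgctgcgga
On either strand, 9 of the 14 list genes with an entry held CCAAT in this window, against 21.3% of all 32851 promoters in the table. The motif was chosen after the values were seen, other motifs that were looked at are not shown, and a match is a description of letters, not of binding.

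None of the olaparib targets and of the genes that the line lacks per the labels passed the test. Parp1 was at 271, 284 and 265 CPM in the ICB tumours and 255, 245, 255 and 265 CPM in the full combination (log2 fold change -0.10, SE 0.07, adjusted p = 0.453), and Parp2 at 45.2, 46.2 and 41.2 CPM in the ICB tumours and 42, 43, 48.3 and 44.6 CPM in the full combination (log2 fold change 0.01, SE 0.07, adjusted p = 0.964). Brca1 was at 10.7, 13.3 and 17.4 CPM in the ICB tumours and 22.1, 13.6, 15.6 and 16.1 CPM in the full combination (adjusted p = 0.363), and Trp53 at 59.9, 56.8 and 55.9 CPM in the ICB tumours and 53.1, 68.9, 71.7 and 58.7 CPM in the full combination (adjusted p = 0.366). The labels do not say which part of either gene is lost and host cells in the tissue keep both, so these counts do not check the genotype. Of 18 repair genes 1 rose, beside 3.6% of all genes tested. It was Rad51c, a gene of homologous recombination, from 2.17, 2.66 and 2.4 to 3.93, 4.64, 3.69 and 3.9 CPM (log2 fold change 0.74, SE 0.16, adjusted p = 0.0113). Tumours given olaparib with ICB were at 3.02, 2.5 and 2.12 CPM, which overlaps the ICB range. Rad51c lost its call without ICB replicate 1 (adjusted p = 0.0599). Of 11 p53 target genes none was called by edgeR or DESeq2. At an unadjusted p under 0.05, 2 were higher, beside 11.4% of all genes. Of 10 TGF-beta genes none was called by edgeR, and DESeq2 called 1. At an unadjusted p under 0.05, 2 were higher and 1 lower, beside 11.4% and 10.8% of all genes. In other fits 3 TGF-beta genes rose without full-combination replicate 1, and 1 fell without full-combination replicate 4 and with the noncoding covariate.

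Fat cell genes had the largest median among the lists with calls, 2.33 over 9 tested of 10. Of them 3 rose, beside 3.6% of all genes tested. Cfd, the complement protease adipsin that fat cells secrete, measured 1.38, 2.89 and 4.34 CPM in the ICB tumours and 38, 24.1, 18.3 and 8.83 CPM in the full combination (log2 fold change 2.96, SE 0.81, adjusted p = 0.0454). Plin4, a coat protein of lipid droplets, measured 0.566, 0.531 and 0.738 CPM in the ICB tumours and 8.24, 3.89, 2.36 and 1.93 CPM in the full combination (log2 fold change 2.74, SE 0.74, adjusted p = 0.0419), and Plin1, the droplet coat of mature fat cells, 0, 0.232 and 0.308 CPM in the ICB tumours and 2.6, 1.36, 1.17 and 0.828 CPM in the full combination (log2 fold change 3.02, SE 0.78, adjusted p = 0.0295). Full-combination replicate 1 was the highest and replicate 4 the lowest of the group for all 3 genes. Tumours given olaparib with ICB were at 14, 8.28 and 13.2 CPM for Cfd, above the ICB tumours as well. Cfd and Plin4 lost their calls without ICB replicate 1, 2 or 3 or full-combination replicate 1, 2 or 3 (adjusted p = 0.0548 to 0.173). Plin1 lost its call without ICB replicate 1 or 2 or full-combination replicate 1 (adjusted p = 0.0616 to 0.111). The log2 fold change of Plin4 was 2.15 without full-combination replicate 1, and that of Plin1 was 3.67 without ICB replicate 3. Rn7sk rose by 2.00 log2 units (SE 0.58, adjusted p = 0.0453), with full-combination replicate 4 highest at 2.83 CPM, and a log2 fold change of 1.4 without that tumour. It lost its call without ICB replicate 1, 2 or 3 or full-combination replicate 2, 3 or 4 (adjusted p = 0.0616 to 0.186). No red blood cell, acinar, skeletal muscle or immediate early gene was called by edgeR. At an unadjusted p under 0.05, 4 of 7 red blood cell genes were higher, beside 11.4% of all genes, and none of the other 3 lists. DESeq2 called 1 red blood cell and 1 acinar gene.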

How the data were processed

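Total RNA of frozen tumour tissue was read as stranded whole-transcriptome libraries depleted of what the labels' protocols call cytoplasmic RNA, per those labels. The submitters' processing notes name the aligner STAR, the read counter HTSeq and the build GRCm38, without their settings. Tool versions, annotation release and strand setting are not given in the sources used here. The count table that the authors deposited holds raw counts for 55406 genes, of which 55227 matched GENCODE M21 and gave symbols and positions. A second deposited table holds log2 values of RPKM with 1 added, made by the authors, and was proportional to the counts for 11703 of 11703 genes checked, within 0.01 on the log2 scale.

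All 20 libraries (26.9 to 34.7 M counts) were fitted in R 4.3.3 with edgeR 4.0.16, with 1 coefficient per group, TMM scaling and filterByExpr (minimum count 10, minimum total 15), and the contrast full combination minus ICB was tested by quasi-likelihood F tests with Benjamini-Hochberg adjustment over 18144 genes. Calls needed an adjusted p under 0.05. SE equals |log2 fold change| over the root of the F statistic, and the common biological coefficient of variation was 0.208. Effective library sizes were used for CPM, and a prior count of 2 for the log2 CPM behind list scores. The p-values rest on the spread between tumours within groups over all 20 libraries, not on that of the 7 compared alone. The fit of those 7 alone called 505 genes. The 40 gene lists (440 genes, 428 tested), the comparison and the naming rule were chosen with earlier results of these data known. The rule names genes that were called, averaged 1 CPM or more and did not overlap (the 10 largest each way, so that the gap is part of their choice), up to 4 genes per list by p, and the targets, and some genes that it names are not reported here. Alternatives were DESeq2 1.42.0, its size factors, no filter, a fit of the 7 libraries, limma 3.58.1 on log2 RPKM, voom with group weights, a replicate block, each library left out, the 4 libraries with acinar RNA left out, and a noncoding RNA covariate. Adipocyte and red blood cell covariates were added after seeing the data. The fit was checked on simulated counts with changes put in for some genes. These counts were drawn independently per gene and held no RNA of other tissue. They therefore cannot show how such RNA or a single tumour moves the calls.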

Additional observations from a re-analysis of the deposited data

Results flagged for a closer look

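Among the 100 genes examined tumour by tumour in the full combination, 2 had 1 tumour apart from the other 3, and chance gives this to about 1 gene in 20. Adgre4 was at 2.17 CPM in replicate 1 and at 3.75 to 3.96 CPM in the other tumours of the group. Cd2 was at 23.9 CPM in replicate 3 and at 14.7 to 16.0 CPM in the others. Without the tumour that stood apart, the log2 fold change of Adgre4 was 2.23 (adjusted p = 0.0122), and that of Cd2 was 0.93 (adjusted p = 0.0211).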

How the results depend on the processing

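All 1108 called genes kept their direction in every alternative that tested them, while their number moved. It was 1783 (1052 higher, 731 lower) by DESeq2, 505 (348 and 157, with 117 at least 2-fold) in the fit of the 7 libraries alone, and 383 (192 and 191, with 14 at least 2-fold on the log2 scale of RPKM with 1 added) by limma. Voom called 291 lower. It was 275 (166 and 109, with 92 at least 2-fold) with the noncoding RNA covariate, 2 (0 and 2, with 1 at least 2-fold) with the adipocyte covariate, and 684 (422 and 262) with the red blood cell covariate. Leaving out 1 library gave 143 to 1258 calls, 105 to 855 higher, 38 to 458 lower and 52 to 380 at least 2-fold. DESeq2 size factors gave 1068 calls, no filter on low counts 864, and the fit without the 4 libraries with acinar RNA 952. Of the 100 genes followed singly, direction reversed for 3, none of them called in the fit that reversed it. Over whole lists, medians changed sign for the neutrophil and both interferon lists, and for others in at least 1 fit. Among these others were the endothelial, VEGF, TGF-beta, repair, inflammatory, and epithelial and mesothelial lists, all with medians near 0. The acinar median went from 4.31 to -6.47 without full-combination replicate 2. Leaving out single libraries, Cd274 ran from -0.000382 (log2, without full-combination replicate 3) to 0.24, and Parp2 from -0.0338 (same library) to 0.0573. Gbp4 went to 0.0538 without the acinar libraries. Parp2 went to -6.30e-05 with the replicate block, -0.0243 without ICB replicate 3 and -0.0125 without the acinar libraries. The cause was not tested.

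Replicate numbers recur in the labels without a stated pairing. Deviations of same-numbered tumours correlated at 0.0422, -0.219 and -0.107, and no tumour correlated best with its own number, so the numbers were not taken as pairs. With the number as a replicate block 1199 genes were called (729 higher, 470 lower). Low counts limit the genes near 1 CPM, among them those of natural killer cells.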
